A study of Mus musculus with 4 samples.

Results

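The inhibitory myeloid receptors considered here are 9 surface receptors of the immunoglobulin superfamily: Lilrb4a, Pirb, Sirpa, Siglec1, Siglece, Cd300a, Cd300lf, Pilra and Cd200r1. They were chosen by name, and each symbol matched 1 of the 55536 genes of the annotation. They were measured by polyA RNA-seq in bone-marrow-derived macrophages (BMDM), a culture model in which marrow progenitors mature into macrophages, in 1 group of 4 libraries from C57BL/6J mice, numbered as biological replicates 1 to 4. The sample descriptions say that the cells were pre-treated with Lipid A, the part of lipopolysaccharide that TLR4 recognises, at 100 ng/mL for 12 h, kept without it for 12 h and stimulated with the same dose for 60 min. The labels disagree on this: in the source names the agent is lipoprotein A and no washout appears. All 4 libraries carry the same treatments, and untreated or singly treated cells are not analysed here, so no level below is a response to Lipid A. The labels name 1 donor record and do not say whether the cultures came from separate animals. The p-values below therefore measure only the spread between these samples, which may be technical. Sex and age were not collected.

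Most of these receptors carry, in the part of the protein inside the cell, an immunoreceptor tyrosine-based inhibitory motif (ITIM). When a Src-family kinase phosphorylates its tyrosine, the motif recruits the phosphatases SHP-1 and SHP-2, encoded by Ptpn6 and Ptpn11, or the lipid phosphatase SHIP-1, encoded by Inpp5d, which dampen signals from activating receptors. Many inhibitory receptors of this kind have near-identical activating relatives, with short tails, which signal through the adaptors DAP12 (Tyrobp) or the Fc receptor gamma chain (Fcer1g). In macrophages these receptors read self molecules such as CD47, CD200, MHC class I, sialic acids and lipids of dying cells.

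The libraries held 23167140 to 41453162 expected counts on genes. All 8 macrophage markers (Adgre1, Csf1r, Mertk, Fcgr1, Lyz2, Cd68, Itgam and Cd14) reached 1 TPM (a transcript abundance scaled for length and library total) in each library, and their sum was 16689 to 19742 TPM. Neutrophil markers summed to 133 and 106 TPM in replicates 1 and 3 and to 13.1 and 12.7 in replicates 2 and 4. Most of each sum was S100a8 and S100a9. Ngp had 7.96, 0.4, 7.34 and 0.56 TPM in replicates 1 to 4, and Ltf 1.48, 0.03, 1.67 and 0.08. Camp was highest in replicate 1, at 1.68 TPM. Mpo, Elane and Cxcr2 stayed below 1 TPM in each library, and Ly6g and Retnlg were at 0 in all 4. Markers of B cells, dendritic cells, eosinophils, and T and NK cells summed to at most 6.66 TPM in any library. Those of mast cells and basophils summed to at most 14.2 TPM, most of it Hdc, with Fcer1a at 0. Cell numbers and RNA per cell cannot be told apart in bulk samples.

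The stretches of coding sequence that encode the inhibitory motifs are shown because they are what most of the receptors share apart from their immunoglobulin domains. The search took the codons after the most hydrophobic window of 20 residues as the tail, and there looked for isoleucine, leucine, valine or serine, then any residue, a tyrosine, any 2 residues, and isoleucine, leucine or valine. Capitals mark the 6 codons of each motif, read from the GENCODE M21 transcript named, 5′ to 3′ on the coding strand.
Sirpa-214, motif 1: aacgacATCACATACGCAGACCTGaatctg
Sirpa-214, motif 2: gataccCTCACCTATGCTGACCTGgacatg
Sirpa-214, motif 3: tctttcTCAGAGTATGCTAGTGTCcaggtc
Pirb-201, motif 1: gaagaaAGCCTATATGCTTCAGTGgaggac
Pirb-201, motif 2: caggatGTGACCTATGCCCAGCTGtgcagc
Pirb-201, motif 3: gagcccAGTGTATATGCTACTCTGgcggct
Lilrb4a-201, motif 1: cagggaATTGTCTACGCCCAGGTAaaaccc
Lilrb4a-201, motif 2: caggatGTAACCTATGCCCAGTTGtgcatc
Cd300a-202, motif 1: gaagtgGTGGAATATAGCACATTGgcatta
Cd300a-202, motif 2: gaagagCTTCACTATTCATCCGTGgcattc
Cd300lf-203, motif 1: ggtgatCTCTGTTATGCAGACCTGtccctg
Cd300lf-203, motif 2: gaggagGTTTCATATGCCGCTCTGactttg
Siglece-201, motif 1: gaagagATACATTATGCGACCCTCagcttt
Pilra-201, motif 1: aataacATCGTGTATGCTTCCATCtccctc

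The tail of Sirpa, with 116 codons, and that of Pirb, with 178, each held 3 such motifs. Lilrb4a, Cd300a and Cd300lf held 2, and Siglece and Pilra 1. Siglec1 and Cd200r1 held none. The tail of Siglec1 was the shortest of the 9, at 36 codons with 1 tyrosine, and that of Cd200r1 had 67 codons and 3 tyrosines. As background, sialoadhesin, the product of Siglec1, is known mainly as a sialic-acid-binding adhesion and uptake receptor, and CD200R signals through DOK proteins that bind phosphotyrosine outside an ITIM. The motif is short and occurs in many proteins: in the last 100 codons of the longest coding model, 12.4% of 9642 genes detected in each library held at least 1 and 1.22% held at least 2. In the same window 7 of the 9 receptors held at least 1 and 5 held at least 2. A match describes the sequence only.

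In mm10 coordinates the 3 Sirpa motifs lie on exon 9 of 9, at chr2:129629948-129629977, chr2:129630071-129630100 and chr2:129630143-129630172 on the plus strand. Those of Lilrb4a lie on exons 8 and 9 of 9, at chr10:51496015-51496044 and chr10:51496188-51496217 on the plus strand. Of the 3 Pirb stretches the first crosses from exon 12 to exon 13 (chr7:3713856-3714109, minus strand, intron included) and the others lie on exon 15 of 15, at chr7:3712780-3712809 and chr7:3712690-3712719. The Cd300a stretches lie at chr11:114899840-114901134, across exons 6 and 7 with the intron included, and chr11:114901141-114901170 on exon 7 of 7, both on the plus strand. Those of Cd300lf lie on exons 5 and 6 of 6 of the minus strand, at chr11:115117642-115117671 and chr11:115117106-115117135. The single stretches of Siglece (chr7:43651579-43651608) and Pilra (chr5:137823565-137823594) lie on the last of 7 exons, on the minus strand. All of the bases printed in the stretches above are coding.

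How strongly each receptor was expressed, and in which order, was described on the length-scaled TPM of the first of 2 deposited quantifications. All 9 receptors had at least 1 TPM in each library, and 4 of them (Sirpa, Pirb, Lilrb4a and Siglec1) had at least 100 TPM in each, against 10.5% of the 10407 genes detected in each library. The median receptor stood at 6.87 ± 0.14 (SD, n = 4) on the log2(TPM + 0.1) scale, and the median of those 10407 genes at 4.09 ± 0.10. The 9 genes together summed to 2500, 2960, 2695 and 2596 TPM in replicates 1 to 4, and Sirpa alone made up 45.1% to 53.2% of that sum.

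**Figure D1:**
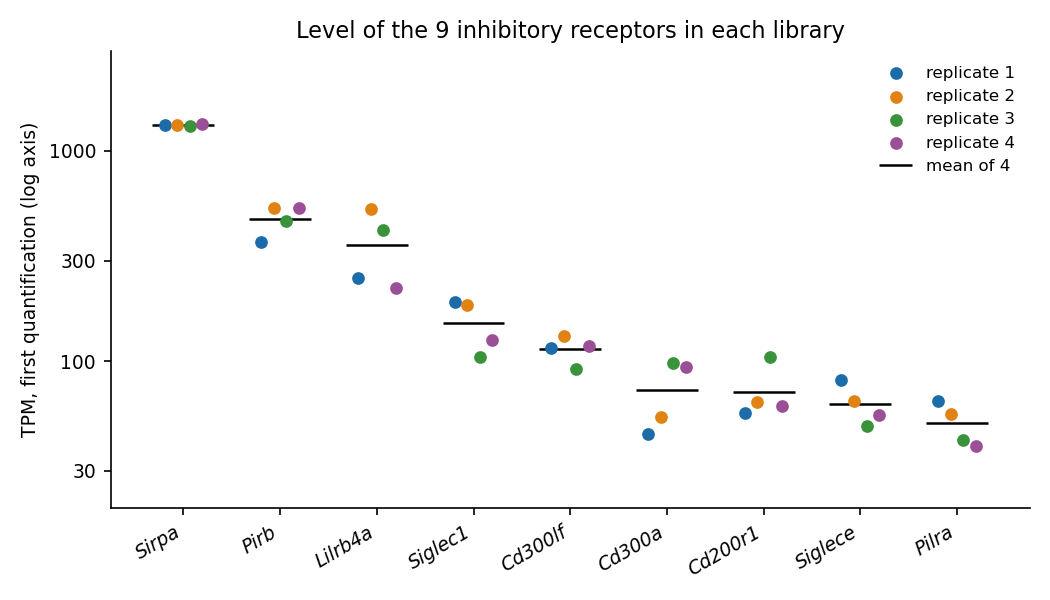
Level of each receptor gene in TPM (log axis) in each of the 4 libraries (coloured points), with the mean of 4 as a bar. Sirpa lies at 1320 to 1344 TPM in all 4 libraries, Lilrb4a spans 222 to 532, and Cd300lf lies wholly above Siglece and Pilra, whose ranges overlap.

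Among receptors for proteins on other cells, Sirpa, the receptor for the "do not eat me" signal CD47, was the highest (ENSMUSG00000037902.18, chromosome 2, 129592835 to 129632228, plus strand). It had 1330, 1334, 1320 and 1344 TPM in replicates 1 to 4, a mean of 1332 ± 9.87 (SD, n = 4), and ranked 83 among all genes by mean TPM. Its coefficient of variation of 0.741% was the lowest of the 1091 genes with at least 100 TPM in each library, whose median was 13.98%. That flatness belonged to the TPM scale of the first quantification: on CPM, counts scaled to the library total but not to length, with TMM scaling, Sirpa ranged over 1.19-fold with a coefficient of variation of 8.54%. In the second quantification it had 1012, 897, 1250 and 1185 TPM, and 2.61% variation once each library was centred on its median difference between the quantifications.

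Pirb, which binds MHC class I (ENSMUSG00000058818.13, chromosome 7, 3711409 to 3720391, minus strand), had 370, 537, 463 and 536 TPM, a mean of 477 ± 78.9 (SD, n = 4). Lilrb4a, the receptor also called gp49B (ENSMUSG00000112148.1, chromosome 10, 51490956 to 51496611, plus strand), had 247, 532, 421 and 222 TPM, a mean of 356 ± 147. Replicates 2 and 3 were high and replicates 1 and 4 low for Lilrb4a, a 2.40-fold range that was the widest of the 9. Cd200r1, the receptor for CD200 (ENSMUSG00000022667.18, chromosome 16, 44765736 to 44794978, plus strand), had 56.4, 64.2, 105 and 61.3 TPM, with replicate 3 above the other 3.

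Among receptors for sialic acids, Siglec1 (ENSMUSG00000027322.11, chromosome 2, 131069220 to 131086765, minus strand) had 191, 186, 105 and 126 TPM, with replicates 1 and 2 above replicates 3 and 4. In the second quantification Siglec1 had 137, 117, 110 and 122 TPM, with replicate 4 above replicate 2. That range was 1.25-fold, and 1.62-fold once each library was centred on its median difference between the quantifications. Siglec1 is known as an interferon-stimulated gene. In the first quantification the sum of 14 interferon-stimulated genes was 26670, 22360, 17738 and 16541 TPM in replicates 1 to 4. This sum, like Siglec1 in that quantification, was higher in replicates 1 and 2, and its part in the level of Siglec1 was not tested. Siglece, a CD33-related sialic acid receptor (ENSMUSG00000030474.9, chromosome 7, 43651070 to 43660161, minus strand), had 80.9, 64.3, 48.9 and 55.6 TPM.

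Among receptors for lipids of dying cells, Cd300lf, which binds phosphatidylserine (ENSMUSG00000047798.15, chromosome 11, 115116214 to 115133992, minus strand), had 115, 132, 91.7 and 118 TPM. Cd300a, which binds phosphatidylserine and phosphatidylethanolamine (ENSMUSG00000034652.12, chromosome 11, 114890041 to 114904654, plus strand), had 45.1, 54.4, 97.8 and 93.7 TPM. Unlike Siglec1 it was low in replicates 1 and 2 and high in replicates 3 and 4. Pilra, a receptor for O-glycosylated proteins (ENSMUSG00000046245.13, chromosome 5, 137821952 to 137836281, minus strand), was the lowest by mean, with 64.2, 56.3, 42.3 and 39.2 TPM.

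Sirpa, Pirb, Lilrb4a and Siglec1 took places 1 to 4 in every library. Of the 8 pairs of neighbours in the order of means, 4 differed beyond their spread, taken as the same sign in 4 of 4 libraries and a mean log2 difference above its SD. Sirpa was 2.83-fold above Pirb, with an SD of 0.25 on the log2 scale over 4 libraries. On that scale Lilrb4a stood above Siglec1 by 1.18 ± 0.73 (SD, n = 4), Siglec1 above Cd300lf by 0.38 ± 0.29 and Siglece above Pilra by 0.31 ± 0.14. The pairs that did not were Pirb and Lilrb4a, Cd300lf and Cd300a, Cd300a and Cd200r1, and Cd200r1 and Siglece. Pirb was above Lilrb4a in 4 of 4 libraries, but by 0.50 ± 0.57. Cd300a and Cd200r1 had nearly the same mean, and Cd300a was the higher in only 1 of 4 libraries. For the pairs of constant sign the exact two-sided sign-flip p was 0.125, the smallest that 4 libraries allow, and adjusted over the 8 pairs by Benjamini-Hochberg it was 0.2. On CPM, which are not divided by length, 3 of the 8 pairs swapped: Siglec1 came above Lilrb4a, Cd300a above Cd300lf and Pilra above Siglece.

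Which transcripts these levels stand for was read from the deposited share of each annotated transcript in its gene, on the TPM scale. For 7 of the 9 receptors the protein-coding transcripts held most of the gene. For Lilrb4a and Pirb they held under 50%, which was so for 5.62% of 9692 detected genes with a coding transcript. In the same 2 genes models annotated as retained intron, which keep intronic sequence and are not given a protein, held more than 50%, against 1.35% of those genes. The models on offer differ between genes: 4 of 14 are coding for Lilrb4a and 1 of 5 for Pirb. All models of Siglec1 and Siglece (3 and 2) are coding, so the coding share of these genes was fixed by the annotation.

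For Lilrb4a, protein-coding models held 2.21%, 0.66%, 8.15% and 7.14% of the gene in replicates 1 to 4, and retained-intron models held 79.4%, 89.4%, 88.6% and 85.6%. No library came near an even split. The leading models were Lilrb4a-206 with 30.7% ± 6.85 (SD, n = 4), Lilrb4a-209 with 17.7% to 26.4% over the libraries and Lilrb4a-207 with 19.0% ± 1.07. These models cover different parts of the gene: Lilrb4a-206 begins inside intron 7 of the full coding model and holds only its exons 8 and 9, which carry the bases of both motifs. Lilrb4a-207 begins inside intron 5 and keeps the 614-base intron 6 whole. Lilrb4a-209 keeps introns 3, 4 and 5 and lacks exons 7, 8 and 9.

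The full coding model Lilrb4a-201, with 335 codons, was listed at 0 in all 4 libraries by both quantifications. Lilrb4a-205, annotated for nonsense-mediated decay, held 18.4%, 9.90%, 3.23% and 7.30%. The models part at the end of exon 1, where Lilrb4a-205 runs 5 bases further (exon 1 ends at 51491056 in place of 51491051 on chromosome 10) and its coding sequence then stops after 39 codons. The stretch around that junction, from 51491037 on exon 1 to 51491211 on exon 2, is shown with the extra bases in capitals, beside the same junction of the neighbouring paralog Lilr4b (51480739 to 51480920), whose models part in the same way. The stretch is coding sequence in each of these models.
Lilrb4a-201: tgctgctataccttggtcttattctggaac
Lilrb4a-205: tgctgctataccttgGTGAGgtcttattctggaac
Lilr4b-201: tgctgctataccttgctcttattctggaac
Lilr4b-213: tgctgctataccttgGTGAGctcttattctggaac

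For Pirb the only coding model, Pirb-201 with 841 codons, held 36.4%, 22.3%, 15.2% and 35.4% of the gene in replicates 1 to 4. The retained-intron models Pirb-202 and Pirb-203 held 42.2% ± 6.23 and 24.2% ± 4.53 (SD, n = 4). Pirb-202 keeps intron 6 of the coding model, of 227 bases (chr7:3716891-3717117), and Pirb-203 keeps intron 1, of 154 bases (chr7:3720139-3720292), and lacks exon 3. Both also end inside the last exon of the coding model, so Pirb-202 has 2923 bases and Pirb-203 2579, against 3824 for Pirb-201. In TPM the coding model of Pirb came to 129 ± 49.1, and the coding models of Lilrb4a together to 14.8 ± 14.1. The second quantification gave the coding models still less: 3.07% ± 0.79 for Pirb and 1.45% ± 1.37 for Lilrb4a.

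**Figure D2:**
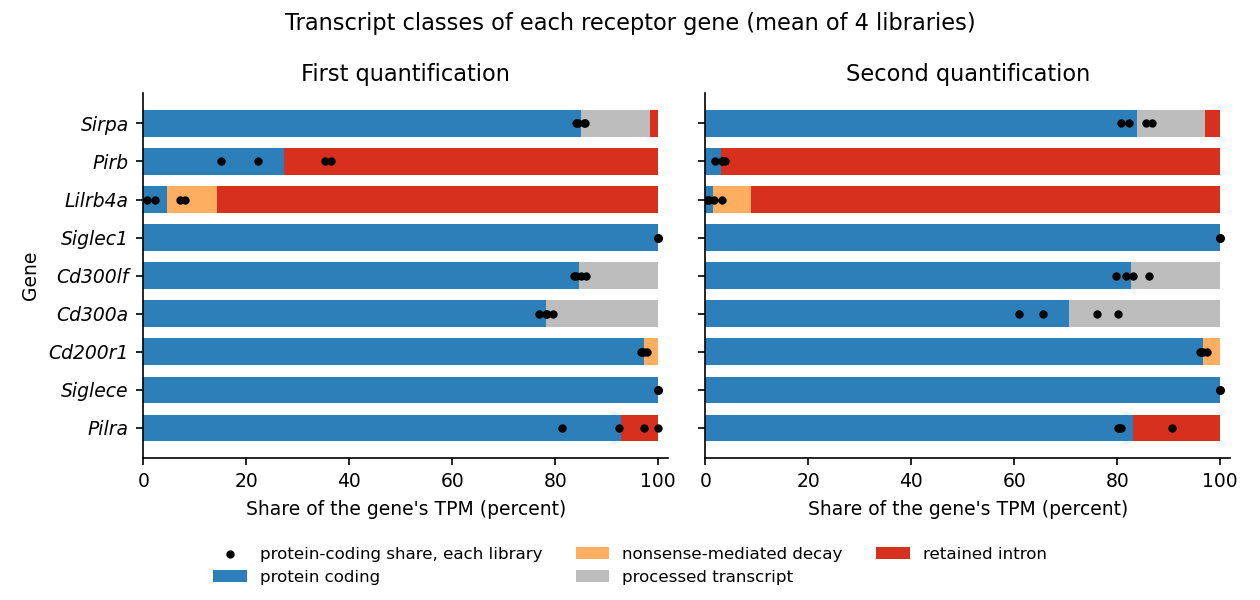
Share of each receptor gene's TPM (percent) held by transcripts of each annotated class, as the mean of 4 libraries (bars), with the protein-coding share of each library as black points, in the first (left) and second (right) quantification. Coding models hold 27.3% of Pirb and 4.54% of Lilrb4a in the first quantification and most of each of the other 7 genes in both.

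The other 7 receptors were mostly coding. The leading models of Siglec1, Siglece and Cd200r1 held 98.0% ± 0.52, 97.7% ± 0.24 and 97.2% ± 0.56 (SD, n = 4) of their genes. Sirpa was divided among Sirpa-214 with 43.0% ± 4.87, Sirpa-204 with 23.5% ± 2.84, the processed transcript Sirpa-207 with 12.8% ± 0.72 and Sirpa-201 with 11.2% ± 0.37. The coding models Sirpa-214, Sirpa-204 and Sirpa-201 all encode the 3 motifs. In the second quantification Sirpa-204 held 11.95% ± 3.23. A shorter coding model of Sirpa with 291 codons, Sirpa-209, also with the 3 motifs, held 3.48%, 4.27%, 6.66% and 7.30% in the first quantification and 4.95%, 5.65%, 5.45% and 6.92% in the second. Replicates 1 and 2 were below replicates 3 and 4 in the first, but not in the second. Cd300a-202 held 72.2% ± 1.10, and the processed transcript Cd300a-203 of the same gene 21.7% ± 1.10.

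Cd300lf was the gene whose leading model differed between the quantifications. Cd300lf-203, with 296 codons, led in the first with 39.4% ± 5.04, ahead of Cd300lf-202 with 22.96% ± 5.84 and Cd300lf-201 with 22.3% ± 2.35. In the second, Cd300lf-201 led with 29.0% ± 2.46 and Cd300lf-203 held 28.2% ± 4.42. All 3 encode both motifs. Pilra-201 held 81.7% ± 9.21 in the first quantification and 45.7% ± 5.94 in the second, where Pilra-202, with a coding sequence of 299 codons in place of 302, held 33.2% ± 3.69.

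Because reads from near-identical relatives can be divided between them, the receptors were compared with their families. By 31-base words, 55.7% of the transcript sequence of Lilrb4a also occurred in another gene, most of it in Lilr4b. For Pirb the share was 43.8%, with the largest overlap (23.7% of words) in Gm14548, at 22.8 TPM. It was 14.2% for Pilra, 7.51% for Cd300a, 4.33% for Cd300lf, 4.06% for Cd200r1, 1.66% for Siglec1, 1.14% for Siglece and 0.0392% for Sirpa. Coding sequences were aligned only to relatives on a list chosen by name, which did not hold Gm14548. The nearest listed relative aligned at 96.03% identity for Lilrb4a and Lilr4b, 94.7% for Pirb and Pira2, and 88.1% for Cd200r1 and Cd200r4. Identity was 83.5% for Pilra and Pilrb1, 81.3% for Cd300a and Cd300c2, and 69.0% for Sirpa and Sirpb1b. The gene-level values and the transcript shares of Lilrb4a and Pirb are therefore uncertain to the extent that the counting divided shared reads. For Pirb the coding model held 27.3% of the gene in the first quantification and 3.07% in the second.

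Of 29 measured relatives 18 reached 1 TPM in each library. Lilr4b, the near-identical neighbour of Lilrb4a, had 800, 1057, 917 and 614 TPM, above Lilrb4a in 4 of 4 libraries and 2.49-fold on average. It followed the same order of libraries as Lilrb4a, highest in replicate 2 and lowest in replicate 4. Its own coding models held 29.8% ± 3.18 of the gene, so a low coding share was not confined to Lilrb4a in this family. Pira2, the activating counterpart of Pirb, had 113, 174, 112 and 184 TPM, and Pirb was 2.91 to 4.13 times as high in each library. All of Pira2 was coding.

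Cd300c2 and Cd300ld3, relatives of Cd300a and Cd300lf, had 263, 202, 319 and 270 TPM and 417, 229, 368 and 226 TPM. Each was above both Cd300a and Cd300lf in every library. The other members of that family at 1 TPM or more in each library were Cd300ld4, Cd300ld5, Cd300ld, Cd300lb and Cd300e, with means of 18.2 to 54.6 TPM. Cd200r4, the activating relative of Cd200r1, had 110, 118, 116 and 91.6 TPM and was higher than Cd200r1 in 4 of 4 libraries. Pilrb1, the activating relative of Pilra, had 50.4, 49.8, 34.7 and 40.03 TPM, and Pilra was 0.980 to 1.28 times its level, so the pair was not separated in every library. Pilrb2 had 39.4, 37.3, 28.3 and 28.0 TPM, below Pilra in 4 of 4.

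**Figure D3:**
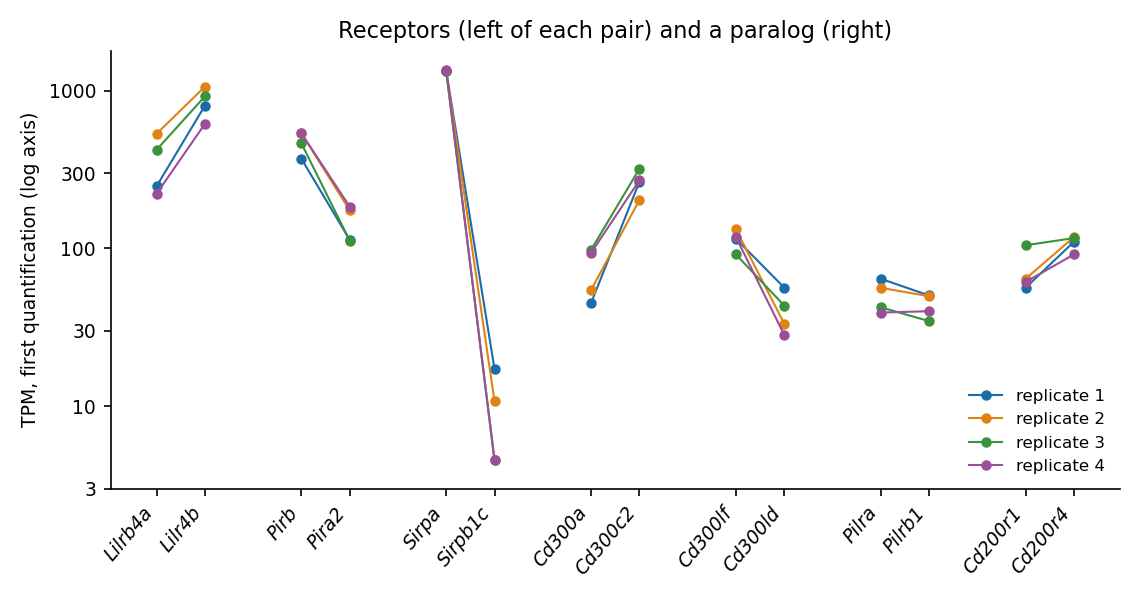
TPM (log axis) of 7 receptors (left of each pair) and of a relative (right), with a line per library. The relative is the higher gene in all 4 libraries for Lilr4b, Cd300c2 and Cd200r4, and the lower gene in all 4 for Pira2, Sirpb1c and Cd300ld.

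The Sirpb1 genes, activating relatives of Sirpa, were low and unequal between libraries. Sirpb1c had 17.2, 10.8, 4.56 and 4.57 TPM, Sirpb1b 14.95, 8.86, 5.12 and 3.49, and Sirpb1a 6.60, 3.71, 1.71 and 0.980. Among Siglec relatives Cd22 had 52.3, 32.5, 59.1 and 54.3 TPM and Cd33 5.28 to 11.4, with Mag at 4.51 to 5.32. Lilra6 had 2.75 to 8.53 TPM. The 11 relatives below 1 TPM in at least 1 library were Lilra5, Sirpb1a, Siglecf, Siglecg, Siglech, Siglec15, Cd300ld2, Cd300c, Cd300lg, Cd200r2 and Cd200r3.

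Whether any receptor varied between libraries more than genes of its level was tested with edgeR, by setting each gene's deviance across libraries against the dispersion trend, adjusted by Benjamini-Hochberg over 11679 genes. No receptor passed, while 305 genes did, 2.61% of those tested. At an unadjusted p under 0.05, 3 of the 9 passed, Cd300a, Pilra and Lilrb4a, against 7.79% of all genes. None passed with the DESeq2 dispersion trend either, which called 335 genes. Without replicate 1 edgeR called 135 genes and again no receptor. The lowest adjusted p was that of Cd300a, 0.237, with a range of 0.104 to 1.00 over the alternatives. Sirpa, Pirb and Cd300lf lay below the trend, with a deviance per degree of freedom of 0.148, 0.392 and 0.912. The others lay above it: Cd300a with 3.73, Pilra with 3.07, Lilrb4a with 2.99, Siglece with 2.36, Siglec1 with 2.31 and Cd200r1 with 2.09. The median was 2.31 for the 9 receptors and 0.497 for all genes tested.

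**Figure D4:**
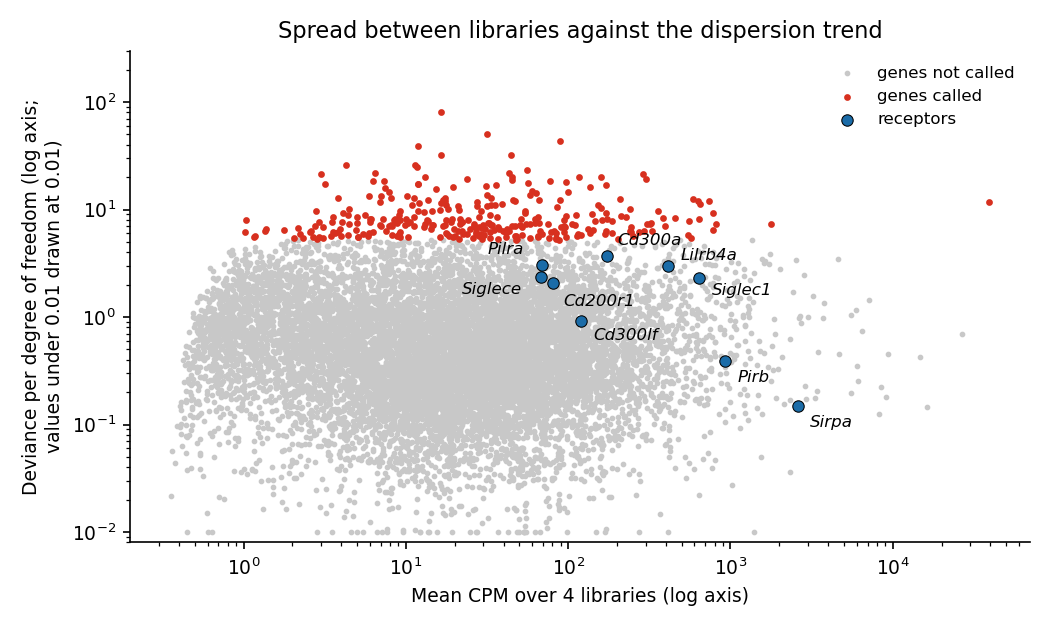
Deviance per degree of freedom of each gene over the 4 libraries (log axis) against its mean CPM (log axis), for 11679 genes, with genes past an adjusted p of 0.05 in red and the 9 receptors in blue. All 9 receptors lie below the 305 called genes, from 0.148 for Sirpa to 3.73 for Cd300a.

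Among the 19 relatives tested, 4 passed the same test. Sirpb1c (adjusted p 0.00374, edgeR), Sirpb1b (0.00518) and Sirpb1a (0.0425) were highest in replicate 1. Cd300ld4 (0.0215) had 80.8, 36.0, 67.7 and 33.8 TPM, high in replicates 1 and 3. The neutrophil markers S100a8 and S100a9 passed as well and were high in the same replicates 1 and 3; the part of other cells in the level of Cd300ld4 was not tested. For no receptor were the TPM of replicates 1 and 3 both above those of replicates 2 and 4. The share of all genes with that pattern was not counted, so nothing about other cells is drawn from it.

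With no receptor past the test, the one with the widest range of log2 CPM, Lilrb4a, was set beside the other genes. Its CPM were 330, 608, 438 and 271. The 3 genes of the most alike pattern, by the root mean square difference of centred log2 CPM over the 4 libraries, were Csrnp2 (0.06), Gm17334 (0.07) and AL732309.1 (0.08). All 3 lay between 0.954 and 3.15 CPM, and 215 of 11678 genes lay within 0.25 of Lilrb4a by this measure, so a likeness over 4 points is common.

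Replicates 1 and 2 have 6 read files each in the deposited records, and replicates 3 and 4 have 4 each. The CPM of 5 of the 9 receptors did not overlap between these pairs of libraries, against 38.8% of all genes tested. Cd300a was the 1 that was higher with 4 files, as 21.4% of genes were, and Siglec1, Cd300lf, Siglece and Pilra were the 4 that were lower, as 17.4% of genes were. Cd300a had 118 and 121 CPM with 6 files and 231 and 225 with 4. Its log2 difference was 0.93 ± 0.16 (SE, edgeR's quasi-likelihood test, adjusted p = 0.554), and DESeq2 gave 0.91 ± 0.19 with an adjusted p of 0.00106, so the call depended on the tool. The edgeR test called 0 of 11679 genes (0.0%), with 838 at an unadjusted p under 0.05, and DESeq2 called 88 of 11226 (0.784%). Without replicate 2 edgeR called 12. No other receptor passed either test. In edgeR the log2 difference was -0.75 ± 0.23 for Siglec1, -0.68 ± 0.22 for Pilra and -0.55 ± 0.22 for Siglece. What else differed between these pairs of libraries cannot be told apart from the number of files.

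The second quantification was lower than the first in all 4 libraries, with a median log2 difference over 12300 genes of -0.41, -0.59, -0.04 and -0.13 in replicates 1 to 4. No receptor passed limma's test of the difference, which asked for an adjusted p up to 0.05 and a change of at least 1 on the log2 scale, while 8.71% of genes were called higher and 3.44% lower in the second. With each library centred on its median the shares were 6.55% and 2.2%, and again no receptor passed. On that centred scale the receptor farthest from the middle was Pilra, 0.29 ± 0.03 (SE) higher in the second quantification (limma, adjusted p = 0.00316), followed by Lilrb4a, 0.12 ± 0.02 higher (0.0237), and Cd300lf, with a difference of -0.09 ± 0.02 (0.0161). The order of the 9 means was the same in both quantifications. Gene totals of Lilrb4a and Pirb, the genes with the most shared sequence, differed by 1.09-fold and 1.07-fold after centring.

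**Figure D5:**
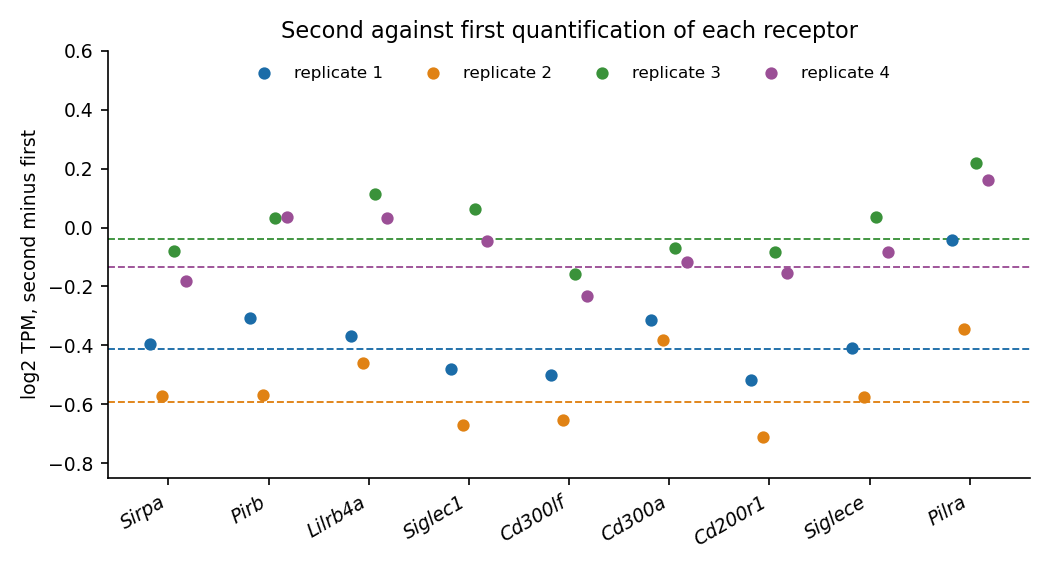
Difference in log2 TPM, second minus first quantification, for each receptor in each library (points), with each library's median over 12300 genes as a dashed line of the same colour. Pilra lies farthest from the lines on average, above its library's line in each library, and Cd300lf and Cd200r1 lie below theirs in each.

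Genes of the signalling machinery that the receptors use were mostly detected. Of 13 phosphatases, kinases and adaptors of inhibitory signalling, 12 reached 1 TPM in each library. Ptpn6, which encodes SHP-1, had 325, 363, 312 and 343 TPM and Ptpn11, which encodes SHP-2, 20.7, 20.2, 18.1 and 20.8, so Ptpn6 was the higher in every library. The lipid phosphatase gene Inpp5d had 158, 114, 131 and 151 TPM. The Src-family kinase gene Lyn had 321, 214, 212 and 197 TPM, highest in replicate 1, and a mean of 236 ± 57.3 (SD, n = 4), and Csk, which restrains such kinases, 175 ± 4.96. Dok2 and Rasa1, through which CD200R acts, had 21.9 ± 5.22 and 22.7 ± 5.27 TPM. None of the 13 passed the variability test. The adaptors of activating relatives were higher: Fcer1g had 3544 ± 576 TPM, Tyrobp 2225 ± 111, Syk 204 ± 24.4 and Hcst 18.6 to 23.6.

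Of 13 measured ligands 8 reached 1 TPM in each library. Cd47, the ligand of Sirpa, had 596, 556, 572 and 540 TPM. MHC class I, bound by Pirb, was among the most abundant messages, with 14909 ± 740.0 TPM for B2m, 8438 ± 633 for H2-K1 and 4973 ± 332 for H2-D1 (SD, n = 4). Cd200, the ligand of Cd200r1, had 11.5, 6.68, 9.00 and 11.1 TPM, below Cd200r1 in each library. Itgav, a chain of the integrin bound by Lilrb4a, had 18.3 ± 5.92 TPM and its partner Itgb3 0.515 ± 0.174. Fn1 was at 0.15 to 1.37 TPM, and the surfactant protein genes Sftpd and Sftpa1 were at 0 in all 4 libraries.

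Other inhibitory receptors gave a scale for these levels. Of 24 measured, 16 had at least 1 TPM in every library, and 8 of these at least 100. The highest were Clec4a1 with 651 ± 93.0 TPM, Cd84 with 505 ± 132, Ly9 with 498 ± 137, Fcgr2b, the inhibitory Fc receptor, with 420 ± 70.5, and Cd72 with 369 ± 147 (SD, n = 4). Sirpa was above all 24 in each library. Cd72 was the 1 of the 16 tested that varied beyond the trend (edgeR, adjusted p 0.0169), with 577 TPM in replicate 1 and 233 in replicate 3. The checkpoint receptor Pdcd1 did not exceed 0.02 TPM, and Tigit and Klrg1 were at 0 in all 4 libraries.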

How the data were processed

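PolyA RNA was sequenced in 4 libraries of 1 group, from 1 µg of RNA each per the labels. Per the deposited records, reads were compared with mm10 and GENCODE M21. The programs are not given in the sources used here. The first quantification holds expected counts, TPM, each transcript's share of its gene in percent, and a posterior standard deviation of the count, all computed by the authors from transcriptome alignments. The second holds estimated counts and TPM per transcript, made by the authors from the read files, which were summed per gene here. The reference annotation held the same M21 transcripts (141767 matched), and sequences were read from it.

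Expected counts were rounded to whole numbers and used with edgeR 4.0.16 (TMM, filterByExpr), with DESeq2 1.42.0 as an alternative. TPM were compared as log2(TPM + 0.1), with limma 3.58.1 for the difference between quantifications, in R 4.3.3. Entries that are not genes of the annotation held 0.0790% to 0.293% of counts and were left out. The scripts were tested on simulated data.

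The 9 members and the 14 gene lists were chosen with earlier results of these data known. In each other list, up to 5 genes with the highest mean TPM were named, plus those past the variability test, and every relative is accounted for; 1 gene that this rule names is not reported here. Genes named beyond that (Ptpn11, Dok2, Rasa1, Cd200, Itgb3, Fn1, Sftpd, Sftpa1, Pdcd1, Tigit and Klrg1) were named after their values were seen. The labels give 1 group, so no groups were compared. Normalization, filters, pseudocounts, tool, quantification and left-out libraries were varied. The centred comparison of the quantifications was chosen after seeing the data.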

Additional observations from a re-analysis of the deposited data

Results flagged for a closer look

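Each of 78 sets of 4 library values was searched for a value far from the other 3, by Dixon's test on the gap to the nearest value over the range. Chance passes about 1 in 20 sets, and 3 of the 78 passed, 1 of them among the TPM of the 9 receptors. Cd200r1 had 104.73 TPM in replicate 3, against 56.37 to 64.18 in the other libraries. Lyn, a kinase that phosphorylates inhibitory motifs, had 321.15 TPM in replicate 1, against 196.59 to 214.26. Cd300lb, a relative of Cd300a and Cd300lf, had 28.7 TPM in replicate 1, against 19.77 to 20.83. None of these 3 genes passed the edgeR variability test.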

How the results depend on the processing

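The median of the 9 receptor means was 114 TPM. It was 87.0 TPM in the second quantification and 174 on CPM not divided by length, and 108 to 122 TPM when each replicate was left out. The median log2(TPM + 0.1) of 6.87 was 6.51 in the second quantification. The median share of the leading transcript was 72.2%, and 61.5% in the second quantification. The number of genes past the variability test was 305, with 203 under a term for the number of read files and 135 to 219 without 1 replicate, where fewer samples were tested. No receptor passed under any of these alternatives. The read-file comparison gave 0 genes in edgeR, 88 in DESeq2 and 35 with no filter beyond 1 count, and 0 to 12 without 1 replicate. The causes were not tested. The difference between quantifications passed for 1494 genes and for 1355 to 1482 without 1 replicate. Of the single receptors, 2 of 9 levels moved by more than their SD in the second quantification (Sirpa and Cd300lf) and 6 of 9 leading shares did. Pirb and Lilrb4a kept coding shares under 50% in each alternative. No paired analysis was possible because the series has 1 group. A count of 3, which a count of 0 allows, came to 0.0724 to 0.129 CPM.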
